A study of Mus musculus with 8 samples.

Results

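Flavin-containing monooxygenases and aldehyde oxidases are enzymes that oxidise drugs, amines and aldehydes outside the cytochrome P450 system. The 8 genes described here are Fmo1, Fmo2, Fmo4 and Fmo5, the aldehyde oxidases Aox1 and Aox3, and the microsomal partner enzymes Por and Ephx1. They were chosen by name from a table of 55401 mouse genes, and each name matched a single row. All 8 passed the filter on low counts, beside 16964 genes tested in all. RNA came from mouse airway cells 10 days after tamoxifen, which switches on the Cre recombinase. The 4 mutant libraries had the genotype Scgb1a1cre; Cdh1F/F, with 2 floxed alleles of Cdh1, the gene of the adhesion protein E-cadherin. The 4 control libraries had the genotype Scgb1a1cre; Cdh1F/+, with 1 floxed allele, so both groups carried the Cre and received tamoxifen. Scgb1a1 is the gene of the major secreted protein of club cells, the secretory cells of the small airways, so its promoter directs the Cre to those cells. The age of the animals and the sorted cell fraction behind each library are not given in the sources used here.

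Flavin-containing monooxygenases sit in the membrane of the endoplasmic reticulum and use NADPH, a flavin cofactor and oxygen to oxidise nitrogen and sulfur atoms of foreign compounds. Aldehyde oxidases are soluble enzymes that carry a molybdenum cofactor, iron-sulfur clusters and a flavin, and oxidise aldehydes and nitrogen-containing rings. Por encodes the NADPH-cytochrome P450 reductase, which passes electrons to every microsomal P450, and Ephx1 encodes the microsomal epoxide hydrolase, which opens reactive epoxides made by P450s. Club cells are known as a main site of such foreign compound metabolism in the lung.

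Mouse Aox1 and Aox3 lie in the same orientation on chromosome 1 of GRCm38, with 6717 bases between the end of Aox1 and the start of Aox3. Their sequences are shown because these were the pair with the largest differences between the groups, and because similar genes can share reads. The first 60 coding bases of each gene follow, joined over the first intron, with capitals at the 38 positions where the pair differ.
Aox1 coding start: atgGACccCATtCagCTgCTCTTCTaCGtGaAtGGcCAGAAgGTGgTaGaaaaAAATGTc
Aox3 coding start: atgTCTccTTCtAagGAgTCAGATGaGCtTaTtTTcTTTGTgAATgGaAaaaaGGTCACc
The Aox1 stretch covers chr1:58030017-58030058 and chr1:58041436-58041453, and the Aox3 stretch covers chr1:58113259-58113312 and chr1:58114871-58114876, all on the plus strand. Over the whole coding sequence the pair were 66.3% identical, and the longest identical run was 20 bases. No stretch of 50 bases in the longest coding transcript of Aox1 or of Aox3 occurred in a transcript of another gene. The coding sequences of Fmo1, Fmo2, Fmo4 and Fmo5 were between 59.3% and 63.0% identical in pairs, with no shared run longer than 24 bases.

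Promoter windows from RefSeq were available for 7 of the 8 genes, all but Fmo1, and each runs from 250 bases before to 50 bases after the transcription start. They are shown for Aox1 and Aox3, and for Por as the window with the highest share of G and C. Capitals mark any match, on either strand, to TATAAA (the TATA box), GGGCGG (the GC box), CCAAT (the CCAAT box), GCGTG (the core bound by the aryl hydrocarbon receptor with its partner) or TGACNNNGC (the core of the antioxidant response element). Matches of different motifs may overlap, and each was counted separately.
Aox1 promoter: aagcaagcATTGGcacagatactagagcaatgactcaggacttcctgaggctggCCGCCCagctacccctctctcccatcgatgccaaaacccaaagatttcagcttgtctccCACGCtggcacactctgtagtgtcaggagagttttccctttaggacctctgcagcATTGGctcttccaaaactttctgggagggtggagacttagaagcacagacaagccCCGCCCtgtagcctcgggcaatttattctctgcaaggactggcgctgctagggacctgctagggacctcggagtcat
Aox3 promoter: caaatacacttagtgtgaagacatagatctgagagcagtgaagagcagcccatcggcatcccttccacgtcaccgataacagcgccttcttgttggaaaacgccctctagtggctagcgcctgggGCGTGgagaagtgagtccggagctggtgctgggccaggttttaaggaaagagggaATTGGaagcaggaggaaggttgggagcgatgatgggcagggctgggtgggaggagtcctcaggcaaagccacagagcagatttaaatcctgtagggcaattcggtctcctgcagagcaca
Por promoter: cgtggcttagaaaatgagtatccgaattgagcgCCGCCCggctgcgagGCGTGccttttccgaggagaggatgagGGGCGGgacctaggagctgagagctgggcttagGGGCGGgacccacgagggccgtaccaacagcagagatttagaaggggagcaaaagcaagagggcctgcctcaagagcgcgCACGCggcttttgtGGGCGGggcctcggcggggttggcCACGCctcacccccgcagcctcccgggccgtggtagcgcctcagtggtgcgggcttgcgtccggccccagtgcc
The windows are chr1:58029719-58030018 for Aox1, chr1:58112886-58113185 for Aox3 and chr5:135688895-135689194 for Por, all on the plus strand of GRCm38.p6. The Aox1 window held 2 GC boxes, 2 CCAAT boxes and 1 GCGTG, and the Aox3 window held 1 CCAAT box and 1 GCGTG. The Por window was 67.3% G and C with 27 CpG pairs, and held 4 GC boxes and 3 GCGTG matches. Over 32851 mouse promoter windows of the same length, the median was 52.7% G and C with 7 CpG pairs. Of those windows, 13.6% held TATAAA, 35.7% held GGGCGG, 37.4% held CCAAT, 32.4% held GCGTG and 12.4% held TGACNNNGC. None of the windows of the 7 genes held TGACNNNGC, and the windows of Fmo5 and Ephx1 each held 1 TATAAA. A match is a run of letters and says nothing of binding.

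Total counts ran between 16981201 and 21673654 in the mutant libraries and between 15111663 and 20454930 in the control libraries. Cdh1 gave no check of the genotype: its whole-gene level was 403 ± 6.08 CPM in mutant and 383 ± 44.7 CPM in control libraries (SD, n = 4 each; CPM are counts per 1000000 counts, scaled by the TMM method), with adjusted p = 0.648 by edgeR's quasi-likelihood test. The gene total does not separate floxed exons from the others. Controls 2 and 3 stood apart from controls 1 and 4 on the first principal component, which held 54.2% of the variance. Controls 2 and 3 were at -37.4 and -43.6, and controls 1 and 4 at -1.18 and -5.46. The mutant libraries lay on the far side of controls 1 and 4, between 18.8 and 24.4. The labelled cell type is airway cells, and the club cell marker Scgb1a1 was at 4177 ± 307 CPM in mutant and 13403 ± 554 CPM in control libraries. The alveolar marker Sftpc was at 16518 ± 1950 CPM in mutant and 17857 ± 2992 CPM in control libraries, and the endothelial marker Pecam1 at 842 ± 57.6 CPM in mutant and 1173 ± 183 CPM in control libraries. RNA of cells other than airway epithelium was therefore abundant in both groups, although the series text describes depletion of immune and endothelial cells.

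Of the 8 genes, 5 fell in mutant libraries at an adjusted p under 0.05 and 0 rose, in edgeR's quasi-likelihood fit, adjusted by Benjamini-Hochberg over all genes tested. The 5 were Aox3, Aox1, Ephx1, Fmo1 and Por, while Fmo2, Fmo4 and Fmo5 did not pass. Over all genes tested, 2.36% were called lower and 5.45% were called higher in mutant libraries. All 8 log2 fold changes were below 0, with a median of -0.73, against a median of -0.01 and a share below 0 of 50.9% over all genes tested. At an unadjusted p under 0.05, 8 were lower and 0 higher, beside 11.8% lower and 13.4% higher of all genes tested. DESeq2, which called 5.54% of all genes lower, called 7 lower and 0 higher. The libraries of the 2 groups did not overlap for 5 genes (Aox1, Aox3, Por, Ephx1 and Fmo4), all lower in mutant libraries, as did 7.07% of all genes tested. The count of 5 fell to 2 without mutant 1, where 0.85% of all genes tested were called lower, and to 2 without both controls 2 and 3, where 1.26% were. Without control 2 it was 3, beside 1.1% of all genes tested. In bulk RNA, fewer cells of a type and less RNA per cell cannot be told apart.

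**Figure D1:**
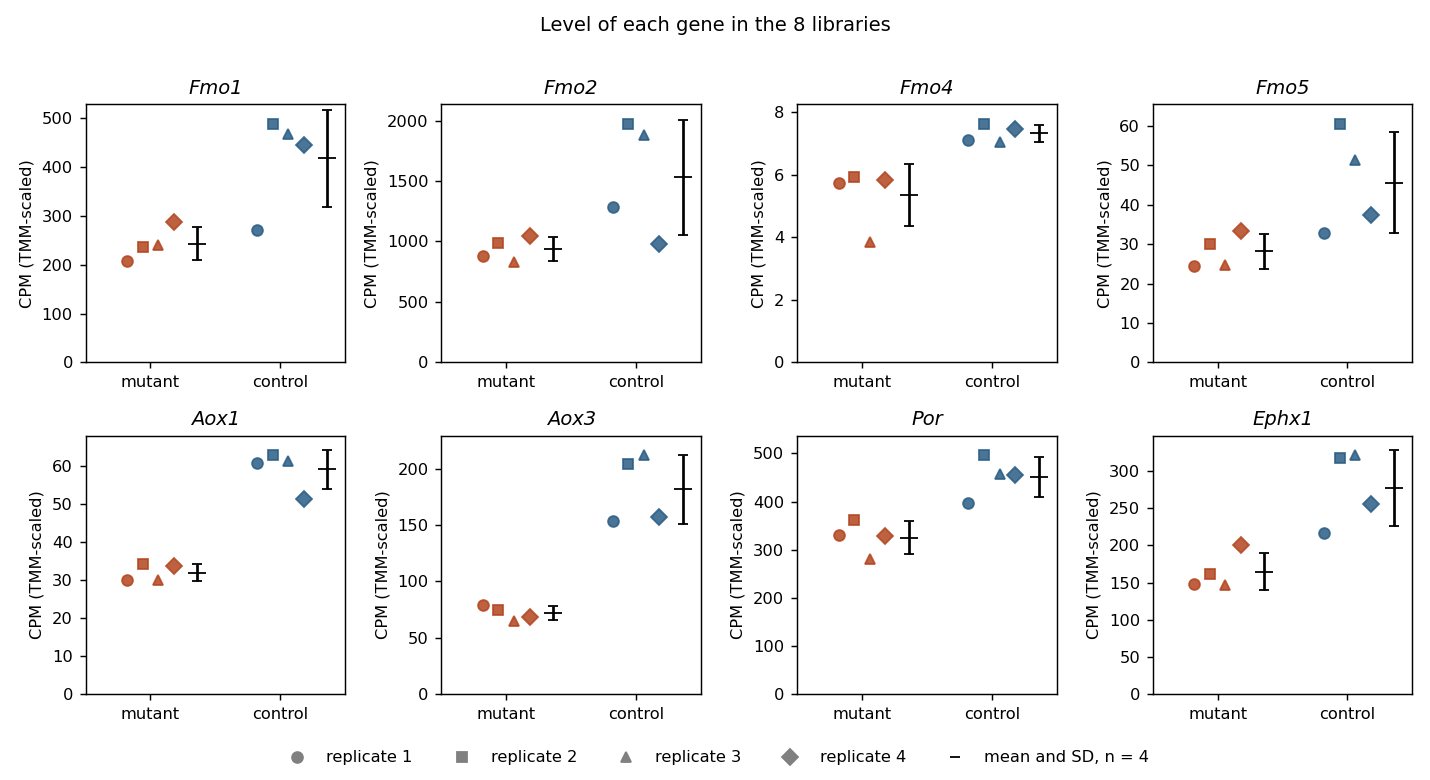
TMM-scaled CPM (vertical axis, from 0) of each of the 8 genes in the 4 mutant libraries (left in each panel) and the 4 control libraries (right), with marker shape for the replicate and the mean ± SD beside the points. The groups are separate for Fmo4, Aox1, Aox3, Por and Ephx1, and overlap for Fmo1, Fmo2 and Fmo5, where control 1 or control 4 lies near the mutant libraries.

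Aox3 encodes an aldehyde oxidase that mice keep as a working gene and is best known from liver and lung. It was at 78.6, 74.9, 65.1 and 68.6 CPM in mutants 1 to 4, against 153, 204, 212 and 158 CPM in controls 1 to 4. Every mutant library was below every control library, and the mutant libraries lay close together. The mean was 71.8 ± 6.06 CPM in mutant and 182 ± 30.7 CPM in control libraries (SD, n = 4 each). This gave a log2 fold change of -1.34 ± 0.12 (SE), or 2.53-fold lower in mutant libraries, with adjusted p = 0.00025 by edgeR's quasi-likelihood test. The 95% interval put the mutant level at 32.7% to 47.8% of the control level.

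Aox1, the mouse counterpart of the aldehyde oxidase that is active in humans, was at 30.0, 34.3, 30.0 and 33.6 CPM in mutants 1 to 4. It was at 60.8, 63.0, 61.5 and 51.5 CPM in controls 1 to 4. Again no library of one group reached into the range of the other. The mean was 32.0 ± 2.30 CPM in mutant and 59.2 ± 5.21 CPM in control libraries (SD, n = 4 each). This gave a log2 fold change of -0.89 ± 0.09 (SE), a 1.85-fold lower level, with adjusted p = 0.000346 by edgeR's quasi-likelihood test. The control spread of Aox1 was small: controls 2 and 3, which had the highest Aox3, had almost the same Aox1 as control 1.

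The fall of Aox3 was larger in size than that of Aox1, but the difference between the 2 did not pass the test. The log2 ratio of Aox3 to Aox1 ran from 1.02 to 1.38 in mutant and from 1.33 to 1.78 in control libraries, so the groups overlapped. The mean log2 ratio of Aox3 to Aox1 was 1.15 ± 0.15 in mutant and 1.60 ± 0.20 in control libraries (SD, n = 4 each; computed as log2 of CPM + 0.5). The difference was -0.45, with p = 0.0571 by a two-sided exact permutation test over 70 arrangements and 0.114 after Benjamini-Hochberg adjustment over the 6 gene pairs tested. Exon length here covers all annotated exons of a gene. Per kilobase of exon, Aox3 made up 73.4 ± 2.07% of the summed Aox1 and Aox3 level in mutant and 79.0 ± 2.31% in control libraries. Aox3 was therefore the more abundant of the pair in all 8 libraries.

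The genes tested on either side of the pair were not called. Sgo2a, a protector of chromosome cohesion that lies 4032 bases before Aox1, was at 3.87 CPM in mutant and 1.68 CPM in control libraries, a log2 fold change of 1.17 ± 0.32 (SE) with adjusted p = 0.0578 by edgeR's quasi-likelihood test. Bzw1, beyond Aox3, was at 208 CPM in mutant and 207 CPM in control libraries. The other aldehyde oxidase genes of mice, Aox4 and Aox2, had 7 and 6 counts over the 8 libraries and were not tested.

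Por was at 329, 362, 280 and 328 CPM in mutants 1 to 4, against 396, 497, 457 and 456 CPM in controls 1 to 4. All mutant libraries were below all control libraries. The mean was 325 ± 34.0 CPM in mutant and 451 ± 41.5 CPM in control libraries (SD, n = 4 each). This gave a log2 fold change of -0.47 ± 0.10 (SE), a 1.39-fold lower level, with adjusted p = 0.0202 by edgeR's quasi-likelihood test. Por was no longer called without control 2 (adjusted p = 0.0575), mutant 1 (0.0619), mutant 4 (0.0557) or both controls 2 and 3 (0.0773). Por lies at chr5:135670033-135735326 on the plus strand. Tmem120a, whose span lies 159 bases beyond the end of Por, was not called. Its level was 23.4 CPM in mutant and 21.8 CPM in control libraries. The next gene tested, Styxl1, rose to 4.11 CPM in mutant, against 1.92 CPM in control libraries, with a log2 fold change of 1.09 ± 0.22 (SE) and adjusted p = 0.0158 by edgeR's quasi-likelihood test.

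Ephx1 was at 149, 162, 147 and 200 CPM in mutants 1 to 4, against 216, 317, 322 and 256 CPM in controls 1 to 4. The groups were separate, with mutant 4 and control 1 nearest to each other. The mean was 164 ± 24.8 CPM in mutant and 278 ± 50.8 CPM in control libraries (SD, n = 4 each). This gave a log2 fold change of -0.76 ± 0.15 (SE), a 1.69-fold lower level, with adjusted p = 0.0138 by edgeR's quasi-likelihood test. Its adjusted p was 0.0558 without mutant 1 and 0.0692 without both controls 2 and 3. Ephx1 lies at chr1:180976210-181020904 on the minus strand, and 72 of its 1950 exon bases overlap a predicted gene on the same strand, where reads were not counted.

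The log2 fold changes of Por and Ephx1, -0.47 and -0.76, were smaller in size than that of Cyp2f2, a major P450 of club cells. Both were larger in size than the median of -0.32 over the 18 microsomal P450s of lung tested. Cyp2f2, the naphthalene-oxidising P450 of club cells, was at 799 ± 132 CPM in mutant and 2840 ± 328 CPM in control libraries (SD, n = 4 each), a 3.55-fold lower level with adjusted p = 7.97e-05 by edgeR's quasi-likelihood test. The mean log2 ratio of Por to Cyp2f2 was -1.29 ± 0.14 in mutant and -2.65 ± 0.07 in control libraries, a difference of 1.36 with no overlap between the groups. The mean log2 ratio of Ephx1 to Cyp2f2 was -2.27 ± 0.16 in mutant and -3.36 ± 0.12 in control libraries, a difference of 1.09, again with separate groups. Both ratios had p = 0.0286 by the exact permutation test, the smallest that 4 against 4 libraries allow, and 0.0857 after adjustment over the 6 pairs, so neither passed. The log2 ratio of Ephx1 to Por differed by -0.27 between the groups (exact permutation p = 0.114, adjusted 0.171).

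**Figure D2:**
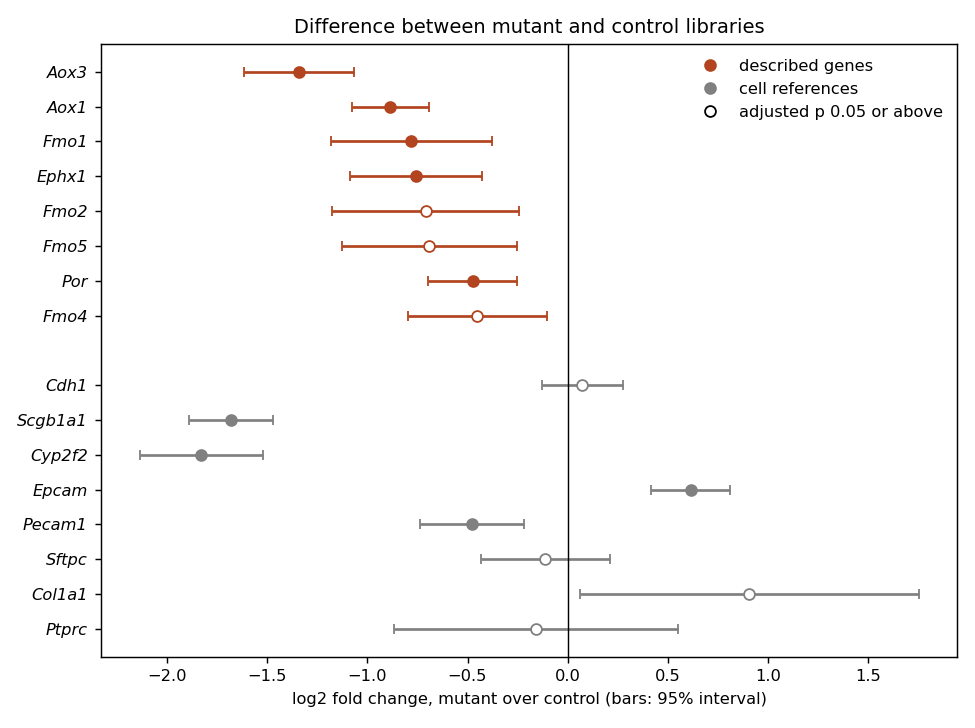
Log2 fold change of mutant over control libraries (horizontal axis) with its 95% interval for the 8 genes (upper rows) and for 8 cell reference genes (lower rows), with filled circles at adjusted p under 0.05. All 8 genes lie left of 0, with Aox3 farthest at -1.34, and none reaches the -1.68 of Scgb1a1 or the -1.83 of Cyp2f2.

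The 4 flavin monooxygenase genes had lower means in mutant libraries, but Fmo1 was the only member of the 4 that passed the test. Fmo1 oxidises amines and sulfides, with liver and kidney as main sites in mice. It was at 209, 237, 241 and 288 CPM in mutants 1 to 4, against 272, 489, 467 and 444 CPM in controls 1 to 4. The groups overlapped, since mutant 4 was above control 1. The mean was 243 ± 32.9 CPM in mutant and 418 ± 99.2 CPM in control libraries (SD, n = 4 each), a log2 fold change of -0.78 ± 0.18 (SE) with adjusted p = 0.0298 by edgeR's quasi-likelihood test. Without control 2, control 3, mutant 1, mutant 2 or mutant 3 the adjusted p was 0.0751, 0.0648, 0.0955, 0.0869 or 0.0762, in that order, and without both controls 2 and 3 it was 0.185.

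Fmo2 is the main flavin monooxygenase of the lung in most mammals and had the highest level of the 8 genes per kilobase of exon. It was at 881, 991, 827 and 1046 CPM in mutants 1 to 4, against 1284, 1975, 1882 and 981 CPM in controls 1 to 4. Control 4 lay within the mutant range, and controls 2 and 3 were highest. The mean was 937 ± 99.9 CPM in mutant and 1530 ± 477 CPM in control libraries (SD, n = 4 each), a log2 fold change of -0.71 ± 0.21 (SE) with adjusted p = 0.0712 by edgeR's quasi-likelihood test. The 95% interval of the mutant level, 44.3% to 84.6% of the control level, was wide, and the control libraries alone ran between 981 and 1975 CPM. Fmo2 passed without control 4 (adjusted p = 0.0115) and without control 1 (0.0393), and was at 0.307 without both controls 2 and 3.

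The library order of Fmo2 in the controls ran opposite to that of the fibroblast marker Col1a1, a collagen chain. Col1a1 was at 521, 482, 484 and 406 CPM in mutants 1 to 4, against 306, 118, 137 and 449 CPM in controls 1 to 4. The 2 controls with the highest Fmo2 had the lowest Col1a1, and control 4, with the lowest Fmo2, had the highest Col1a1 of the controls. This was not particular to Fmo2. With group means removed, Pearson's r of log2 CPM with Col1a1 was -0.97 for Fmo2, -0.85 for Fmo5, -0.79 for Aox3 and -0.73 for Ephx1. It was -0.71 for Aox1, -0.49 for Fmo1, -0.38 for Por and -0.04 for Fmo4. Nor was it particular to Col1a1. With group means removed, r with Sftpc was 0.95 for Fmo1, 0.95 for Ephx1, 0.62 for Fmo2 and 0.09 for Fmo4. With the immune cell marker Ptprc, r was -0.87 for Fmo1, -0.83 for Ephx1, -0.59 for Fmo2 and -0.21 for Fmo4. Col1a1 was 1 of 10 fibroblast and pericyte markers, whose median log2 fold change was 0.16, with 2 higher and 0 lower, and 4 of the 10 were below 0. Whether any of these bears on the Fmo2 values was not tested.

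Fmo5, an atypical family member that inserts oxygen into ketones, was at 24.5, 29.9, 24.7 and 33.4 CPM in mutants 1 to 4, against 32.8, 60.6, 51.4 and 37.4 CPM in controls 1 to 4. Control 1 lay just below mutant 4, and controls 2 and 3 were again highest. The mean was 28.1 ± 4.32 CPM in mutant and 45.6 ± 12.8 CPM in control libraries (SD, n = 4 each), a log2 fold change of -0.69 ± 0.19 (SE) with adjusted p = 0.0623 by edgeR's quasi-likelihood test. It passed without control 1 (adjusted p = 0.0143) and without control 4 (0.0405).

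Fmo4, a flavin monooxygenase whose natural substrates are little known, was at 5.76, 5.94, 3.86 and 5.84 CPM in mutants 1 to 4, against 7.13, 7.65, 7.05 and 7.48 CPM in controls 1 to 4. No mutant library reached the control range, and mutant 3 was well below the other 3. The mean was 5.35 ± 0.994 CPM in mutant and 7.33 ± 0.282 CPM in control libraries (SD, n = 4 each), a log2 fold change of -0.45 ± 0.16 (SE) with adjusted p = 0.109 by edgeR's quasi-likelihood test. It stayed above 0.05 under all 22 alternatives, with a lowest adjusted p of 0.0529.

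The make-up of the flavin monooxygenase group differed between the groups by less than the spread among control libraries. Per kilobase of exon, Fmo2 was 78.8 ± 1.47% of the summed level of the 4 genes in mutant and 77.5 ± 5.85% in control libraries (SD, n = 4 each). Fmo1 was 18.2 ± 1.54% in mutant and 19.6 ± 5.54% in control libraries, and Fmo4 and Fmo5 made up the small remainder. The size of these shares depends on the length used. For Fmo1 that was 6304 bases over all annotated exons, against 2388 bases in its longest coding transcript. The log2 ratio of Fmo1 to Fmo2 differed by -0.09 between the groups, with p = 0.857 by the exact permutation test, and that of Fmo5 to Fmo4 by -0.22, with p = 0.371 (adjusted 0.446). The first of these differences was 0.14 without control 4, so its sign rested on that library.

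Fmo4, Fmo1 and Fmo2 lie in a row on chromosome 1, between 162793188 and 162898726, all on the minus strand. Fmo6, further along the same cluster, was at 0.658 ± 0.232 CPM in mutant and 1.43 ± 0.116 CPM in control libraries, a log2 fold change of -1.09 ± 0.27 (SE) with adjusted p = 0.0365 by edgeR's quasi-likelihood test, on 153 counts in all. Prrc2c and Prrx1, which flank the cluster, had log2 fold changes of 0.16 and 0.09 and were not called. Fmo5 lies apart, on chromosome 3, and its neighbours Chd1l and Prkab2 were not called.

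Per kilobase of exon, Fmo2 stood first in both groups, at 167 ± 17.8 CPM per kb in mutant and 273 ± 85.1 CPM per kb in control libraries. Ephx1 was at 84.3 ± 12.7 in mutant and 142 ± 26.1 in control libraries, and Por at 80.8 ± 8.45 in mutant and 112 ± 10.3 in control libraries, on the same scale. Fmo1 followed at 38.6 ± 5.22 in mutant and 66.3 ± 15.7 in control libraries, then Aox3 at 10.2 ± 0.862 in mutant and 25.9 ± 4.37 in control libraries. At the low end, Fmo5 was at 4.96 ± 0.761 in mutant and 8.03 ± 2.25 in control libraries, Aox1 at 3.68 ± 0.265 in mutant and 6.81 ± 0.599 in control libraries, and Fmo4 at 1.44 ± 0.268 in mutant and 1.98 ± 0.0761 in control libraries. The ranges of mean ± SD overlapped for Ephx1 and Por in both groups, and for Fmo5 and Aox1 in control libraries. The length used was that of all annotated exons, 8690 bases for Aox1 and 4021 for Por. Their longest coding transcripts had 4423 and 2636 bases, in that order. All exons and the longest coding transcript measured 6304 and 2388 bases for Fmo1, and 1950 and 1741 bases for Ephx1. The order of Fmo1, Por and Ephx1, and that of genes close in level, therefore depends on the length used.

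Among relatives of the 8 genes, 5 of the 8 listed were measured well enough to test, and 2 fell and 0 rose. The 2 were Fmo6 and Ephx2, the soluble epoxide hydrolase. Ephx2 was at 4.73 ± 1.17 CPM in mutant and 8.20 ± 0.606 CPM in control libraries, a log2 fold change of -0.79 ± 0.19 (SE) with adjusted p = 0.0321 by edgeR's quasi-likelihood test. The median log2 fold change of the 5 was -0.79. Neither passed without both controls 2 and 3, and the count was also 0 without control 2, control 3, mutant 1 or mutant 2, and 1 without mutant 3.

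For the cofactor supply of the enzymes, calls depended on the tool and the libraries. Of 8 genes for the molybdenum cofactor or for other molybdenum enzymes, 0 were called, with 3 lower and 0 higher at an unadjusted p under 0.05 and a median log2 fold change of -0.24. DESeq2 called 0 of them and limma-voom 4, all lower. By edgeR's quasi-likelihood test, 5 were lower without both controls 1 and 4, and 1 was lower without control 1 or without control 4. Xdh, the molybdenum enzyme that makes uric acid, was at 405 ± 52.2 CPM in mutant and 494 ± 179 CPM in control libraries. Of 5 genes for riboflavin uptake and flavin synthesis, 0 were called, with 1 higher and 0 lower at an unadjusted p under 0.05 and a median of 0.03. DESeq2 called 0 of them, and limma-voom 1 higher.

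Among 14 tested genes of microsomal electron transfer and the partners of Por, 2 fell and 1 rose, with a median log2 fold change of -0.11. Cyb5a, the cytochrome b5 that assists P450s, was at 183 ± 22.5 CPM in mutant and 264 ± 21.6 CPM in control libraries, a log2 fold change of -0.53 ± 0.10 (SE) with adjusted p = 0.0125 by edgeR's quasi-likelihood test. Pgrmc1, a heme-binding protein that interacts with P450s, was at 152 ± 8.60 CPM in mutant and 230 ± 33.7 CPM in control libraries, a log2 fold change of -0.60 ± 0.11 (SE) with adjusted p = 0.00846 by the same test. Sqle, the squalene monooxygenase of sterol synthesis and a recipient of electrons from Por, rose to 58.5 ± 3.88 CPM in mutant, against 41.5 ± 7.03 CPM in control libraries, with adjusted p = 0.0305 by the same test. Sqle was not called without control 2, control 3, any of the mutant libraries or both controls 2 and 3.

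Of 18 microsomal P450s of lung, 5 fell and 0 rose, with a median log2 fold change of -0.32. At an unadjusted p under 0.05, 9 were lower and 1 higher, and DESeq2 called 8 lower and 0 higher. Beside Cyp2f2, they were Cyp2a5 (log2 fold change -1.65 ± 0.16), Cyp4b1 (-1.09 ± 0.22), Cyp3a13 (-0.81 ± 0.17) and Cyp1a1 (-1.60 ± 0.42; SE). Their adjusted p by edgeR's quasi-likelihood test were 0.000399, 0.0158, 0.018 and 0.0482, in that order. Cyp2a5 has a near-identical paralog with which it can share reads, so its value is uncertain, and the groups overlapped for Cyp1a1. The count of P450s that fell was 3 without both controls 2 and 3, 2 without mutant 1, and 3 without control 2, control 3, mutant 2 or mutant 3. It was 8 without control 1, and 7 without control 4. Of 13 regulators of foreign compound response, 0 were called, with 2 higher and 2 lower at an unadjusted p under 0.05, while DESeq2 called 1 higher and 1 lower and limma-voom 2 higher and 3 lower.

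**Figure D3:**
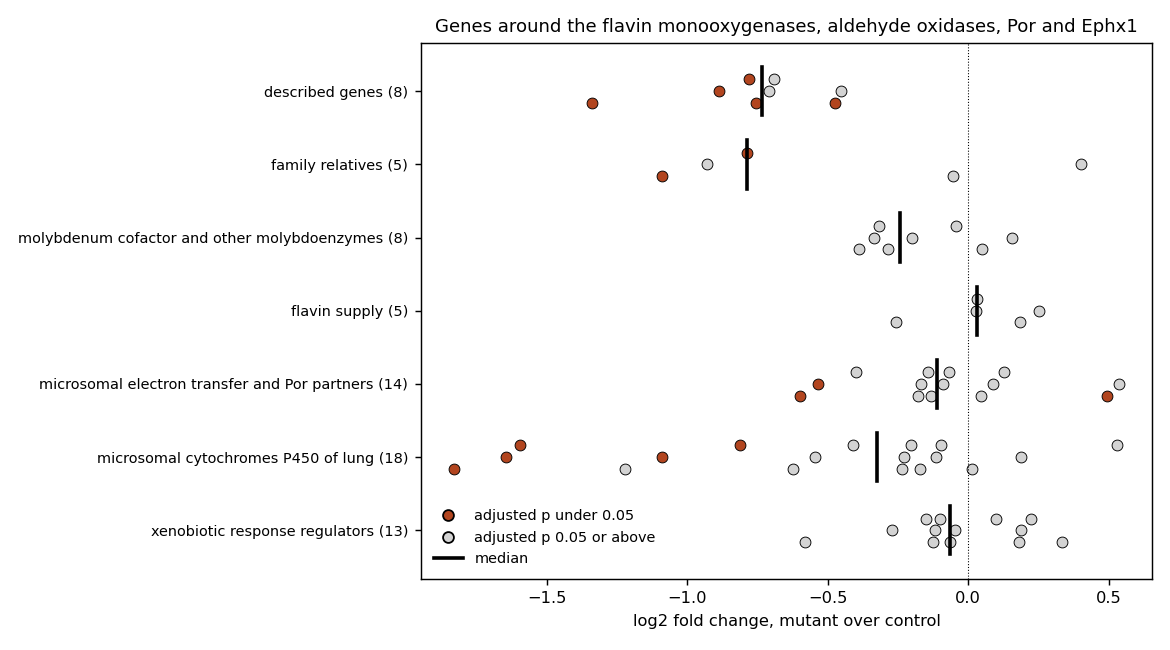
Log2 fold change of mutant over control libraries (horizontal axis) for the 8 genes (top row) and for the tested genes of the 6 related lists below them, with the number of genes in brackets, coloured circles at adjusted p under 0.05 and a bar at the median. The medians of the flavin supply and regulator rows lie near 0, at 0.03 and -0.06, and that of the 8 genes at -0.73.

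Markers of several cell types moved in the same comparison. Of 10 club cell markers, 7 fell and 0 rose, and their summed level was between 8776 and 11025 CPM in mutant and between 25425 and 27934 CPM in control libraries. Of 10 endothelial markers, 4 fell and 0 rose, with a summed level between 3943 and 4445 CPM in mutant and between 4993 and 6079 CPM in control libraries. At an unadjusted p under 0.05 in edgeR's quasi-likelihood fit, 9 endothelial and 8 club cell markers were lower and 0 higher. DESeq2 and limma-voom each called 8 endothelial and 8 club cell markers lower and 0 higher. Without both controls 2 and 3, 7 club cell and 1 endothelial marker fell. The endothelial count was between 0 and 3 when each library but control 1 was left out in turn, and 7 without control 1, while the club cell count was 7 or 8. Of 5 epithelial markers 3 rose, and of 8 ciliated cell markers 5 rose, while 0 of 8 alveolar type II markers were called by edgeR's quasi-likelihood test, with 1 higher at an unadjusted p under 0.05, and 0 by DESeq2 or limma-voom. Of 9 myeloid markers 4 rose, with a summed level between 1454 and 1711 CPM in mutant and between 994 and 1294 CPM in control libraries, and 3 or 4 rose when each library was left out. Another 4 of the 9 had a log2 fold change below 0, and 0 were called lower. Of 10 fibroblast and pericyte markers 2 rose (Col3a1 and Mfap4), of 6 smooth muscle markers 2 fell (Cnn1 and Des), and of 8 alveolar type I markers 1 fell (Rtkn2). Of 8 lymphoid markers 0 were called, also at an unadjusted p under 0.05 and by DESeq2 or limma-voom. When each library was left out, the fibroblast and pericyte count that rose was 2 without control 1, 4 without control 4 and 0 without any of the others, the smooth muscle count that fell was between 0 and 2, and the alveolar type I count that fell between 0 and 4. No marker was at 0 in all libraries. The part of these shifts in the levels of the 8 genes was not tested.

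The genes most like each of the 8 were found by Pearson's r of log2 CPM over the 8 libraries, among 12291 genes, as a description. The genes most like Aox1 were Traf1, Ces1d and Gsta3, and those most like Aox3 were Scgb1c1, Idh3b and Ces1f. Ces1d and Ces1f are carboxylesterases, Gsta3 is a glutathione transferase and Scgb1c1 is a secretoglobin. After the group means were removed, r was 0.86, 0.82 and 0.89 for the 3 partners of Aox1 and 0.79, 0.97 and 0.64 for those of Aox3, so part of the likeness lay between the groups.

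The genes most like Fmo2 were Pxdc1, Eid2b and Eapp, with r of 0.99 in each case, and none of the 3 was called. Those most like Fmo1 were Synm, Maob and Sertad2, and those most like Fmo5 were Bckdha, Zfp874b and Cab39l. Ephx2 was most like Fmo4, at r of 0.97. Epas1, Me3 and Ivd were most like Por, and Bambi and Mettl7a1 were among those most like Ephx1. For Fmo2, r was at least 0.97 after the group means were removed, so these genes followed the differences among libraries within a group.

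The calls of the 8 genes fell into 3 kinds over 22 alternative analyses. Aox1 and Aox3 were lower at an adjusted p under 0.05 in all 22. Ephx1 was in 20, Por in 18 and Fmo1 in 15 of the 22. Fmo5 passed in 7, Fmo2 in 5 and Fmo4 in 0 of the 22, and no gene changed sign.

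**Figure D4:**
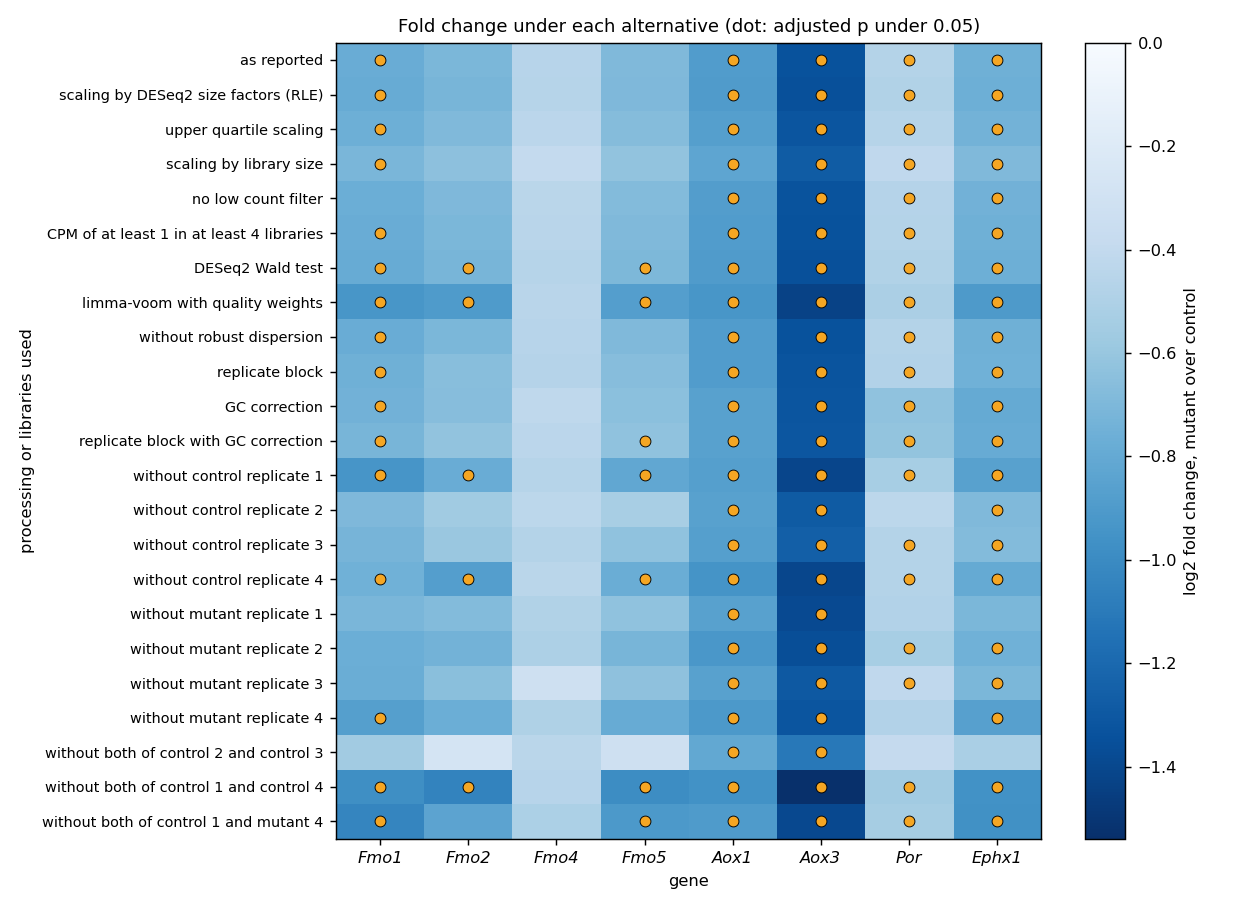
Log2 fold change of mutant over control libraries (colour, from 0 in white to the lowest value, -1.54, in dark blue) for the 8 genes (columns) as reported and under 22 alternatives (rows), with a dot where the adjusted p was under 0.05. Aox1 and Aox3 have a dot in every row, and the row without both controls 2 and 3 has no other dot.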

How the data were processed

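RNA was sequenced from 8 libraries of mouse airway cells. The deposited table was made, per the file headers, with featureCounts 1.6.2 run on read pairs against GENCODE M25 on GRCm38, and the authors left its values as raw counts. The recorded command ignored strand, and reads that mapped to several places or over several genes were not counted, so a gene and its antisense partner cannot be told apart. STAR, Bowtie2 and Cufflinks are listed in the submitters' processing notes with no stated role, and the labels name 2 library kits. Symbols came from GENCODE M21 for 99.53% of the IDs, and promoters from RefSeq.

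Counts were filtered with filterByExpr (minimum count 10, total 15), scaled by TMM and tested with edgeR 4.0.16 (robust quasi-likelihood fit, two-sided, group as the only term, Benjamini-Hochberg over 16964 genes, threshold 0.05). DESeq2 1.42.0 and limma-voom 3.58.1 were alternatives, with other scalings, filters, a GC correction, a replicate block and each library left out. The script was tested on simulated data. Ratios of gene pairs used log2 of CPM + 0.5. The genes named beside the 8 were the called genes of each list (at most 6 a list), 8 cell references and the 3 genes with the highest r among genes of average log2 CPM of at least 2; neighbouring genes, the called cell markers and the uncalled list genes given with values were added after seeing the data. The 8 genes and the lists were chosen with earlier results of these data known. 1 gene of the relatives list and 1 of the most similar genes are not reported here. No source states that each library is a separate animal; the p-values rest on the spread between libraries, which may be technical. No 2 libraries agreed within sampling noise, with a chi-square per gene of at least 4.72 in every pair of a group.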

Additional observations from a re-analysis of the deposited data

Results flagged for a closer look

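Of 28 groups of 4 libraries examined, 1 held a library far from the others, and chance gives about 1 in 20. The level of Fmo4 was 3.86 CPM in mutant 3, against 5.76, 5.94 and 5.84 CPM in mutants 1, 2 and 4, and the gap to the nearest library was 0.91 of the range of the 4. Without mutant 3 the log2 fold change of Fmo4 was -0.32, against -0.45 with it, and Fmo4 passed the test in neither case.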

How the results depend on the processing

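All 8 genes kept a lower level in mutant libraries under all 22 alternatives. The 5 genes called lower, beside 2.36% of all genes tested, became 7 by DESeq2 (5.54%) and 7 by limma-voom (14.1%). The count was 4 without the filter on low counts (1.42%) and 2 without both controls 2 and 3 (1.26%). It was 7 without both controls 1 and 4 (19.2%) and 6 without both control 1 and mutant 4 (3.69%). When each library was left out, the count was between 2 and 7, beside between 0.85% and 6.52% of all genes tested. Without the filter Fmo1 had adjusted p = 0.0568 in edgeR's quasi-likelihood fit, and Fmo5 had 0.0476 with the replicate block and a GC correction.

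Over all genes, 401 were called lower and 924 higher. DESeq2 called 939 lower, and limma-voom 2393 lower and 2794 higher. Without both controls 2 and 3, 223 were lower; without both controls 1 and 4, 3338 were lower and 3750 higher; without both control 1 and mutant 4, 625 were lower. Leaving out each library gave between 146 and 1117 lower and between 515 and 1517 higher. The cause was not tested. The difference in the log2 ratio of Fmo1 to Fmo2 was between -0.22 and 0.14 when each library was left out, the second without control 4; the other ratio differences kept their sign. With so few arrangements the adjusted p can hardly pass, so staying above the threshold says nothing of stability.

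Deviations from the group mean had correlations of 0.03, 0.19, -0.14 and 0.17 between libraries of the same number. Between libraries of different numbers the correlations ran from -0.21 to 0.17. So few values cannot decide whether the numbers pair the libraries. With the replicate block, 5 of the 8 genes, and 371 genes lower and 865 higher in all, were called.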
